A study of Mus musculus with 4 samples.

Results

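Histone lysine demethylases are enzymes that remove methyl groups from lysines of the histone tails. The 10 genes described here are Kdm1a, Kdm1b, Kdm2a, Kdm2b, Kdm4a, Kdm4b, Kdm4c, Kdm5a, Kdm5b and Kdm6a, chosen by name and read from the rows with their mouse gene IDs. All 10 were found among the 17374 genes of the table, with 45 of its 45505 transcripts. Germinal vesicle (GV) stage oocytes, which are arrested in meiotic prophase, came from non-primed females of a C57/Bl6/DBA2J F1 hybrid background on day 16 of post-natal development. They were freed of cumulus cells and of the zona pellucida and held in meiotic arrest with milrinone. The control group was non-irradiated, and the irradiated group received 5 Gy of γ-irradiation from a caesium source and was collected 24 h later. Each group holds 2 libraries of pooled oocytes, from 2 experimental replicates, with 59 oocytes per condition in all and no number given for each library. The time for which control oocytes were kept in culture is not stated, so that irradiation and time in culture cannot be told apart.

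The enzymes fall into 2 families. KDM1A and KDM1B are flavin-dependent amine oxidases that act on monomethyl and dimethyl lysine 4 of histone H3 (H3K4), an active promoter mark. The others carry a JmjC domain and use iron and 2-oxoglutarate, and some of them can also act on trimethylated lysines. KDM5A and KDM5B act on H3K4, KDM2A and KDM2B on H3K36, the KDM4 enzymes on H3K9 and H3K36, and KDM6A on H3K27, the mark laid down by the Polycomb complex PRC2. Of these, KDM1B is known from the growing oocyte, where it clears H3K4 methylation before DNA methylation is set at imprinted genes. H3K9 trimethylation, a substrate of the KDM4 enzymes, is a hallmark of pericentric heterochromatin.

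The sequences shown first mark where the transcripts of Kdm1a, Kdm6a and Kdm2b differ, since the reads of these genes were shared out among such transcripts. The gene Kdm1a lies on chromosome 4 of GRCm38 from 136550533 to 136602787. Its 2 listed transcripts differ in coding exon 3, of 60 bases, which NM_001347221.1 holds (873 codons) and NM_133872.2 lacks (853 codons). That exon lies at chr4:136582040-136582099 on the minus strand and is written in capitals, between 15 bases of the neighbouring exons on each side. For Kdm6a, on chromosome X from 18160862 to 18279936, the transcripts NM_009483.2 (1424 codons) and NM_001310444.1 (1401 codons) differ in 17 coding bases at the end of exon 28, at chrX:18277547-18277563 on the plus strand. These bases are in NM_009483.2 and are written in capitals between 20 bases on each side. Both sequences were read from the annotated transcripts of GENCODE vM21 (GRCm38).
Kdm1a, exon 3 in capitals: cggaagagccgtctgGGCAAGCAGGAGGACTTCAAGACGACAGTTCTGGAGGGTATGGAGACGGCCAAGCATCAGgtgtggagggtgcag
Kdm6a, end of exon 28 in capitals: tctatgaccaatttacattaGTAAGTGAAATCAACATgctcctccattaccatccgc

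Kdm2b lies on the minus strand of chromosome 5 from 122870664 to 122989270 and has starts far apart. The listed transcript NM_013910.2 has 12 exons and 776 codons, and its first exon spans 122900149 to 122900355. The full-length model NM_001003953.2, which is not analysed here, has 23 exons and 1309 codons and starts 88744 bases upstream. It has 12 exons, with 551 coding codons, that lie upstream of the first exon of NM_013910.2. As background, the short form of KDM2B lacks the JmjC demethylase domain and keeps the CxxC zinc finger, which binds unmethylated CG dinucleotides and brings the Polycomb complex PRC1.1 to CpG islands. The 2 start regions are shown because the reads of Kdm2b fell mostly on transcripts of the shorter length, as given further on. Each window runs from 250 bases before the annotated start to 50 bases after it (RefSeq, GRCm38.p6, minus strand), with every CG in capitals.
Kdm2b short start, chr5:122900301-122900600: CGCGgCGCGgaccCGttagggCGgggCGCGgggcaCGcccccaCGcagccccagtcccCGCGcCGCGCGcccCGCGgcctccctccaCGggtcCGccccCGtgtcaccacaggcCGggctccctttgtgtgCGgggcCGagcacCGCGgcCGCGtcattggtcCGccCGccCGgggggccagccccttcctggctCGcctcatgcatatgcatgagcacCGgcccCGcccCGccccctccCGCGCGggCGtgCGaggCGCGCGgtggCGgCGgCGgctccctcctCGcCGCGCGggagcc
Kdm2b full-length start, chr5:122989050-122989349: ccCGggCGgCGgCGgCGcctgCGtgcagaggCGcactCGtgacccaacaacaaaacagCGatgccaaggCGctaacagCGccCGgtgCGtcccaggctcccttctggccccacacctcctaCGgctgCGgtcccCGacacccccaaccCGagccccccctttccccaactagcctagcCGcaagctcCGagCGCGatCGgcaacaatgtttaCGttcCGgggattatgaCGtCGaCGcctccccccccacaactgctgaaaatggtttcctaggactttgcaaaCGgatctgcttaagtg
The dinucleotide CG, which reads the same on both strands, occurs 49 times in the first window and 28 times in the second. Among 32851 windows of the same length the median was 7, and 94.6% held at least 1. Fewer CG were found in 99.0% of all windows than in the short start and in 85.8% than in the full-length start. Windows were found for 7 of the 10 genes (11 windows), and the count of CG in them ran from 0, in a window of Kdm4c, to 49. Another window of Kdm4c, at chr4:74251629-74251928, held 28.

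The libraries held between 33349466 and 37232818 estimated counts. Their oocyte identity was checked with 10 marker genes, all of which were listed, with a summed TPM of 29292.88 to 31369.81 per library. TPM is a transcript level corrected for length and given relative to a fixed total per library, so that levels of different genes can be set side by side. Of 10 granulosa and cumulus markers 7 were listed, 2 of them at 3 counts or fewer in every library. The summed TPM of the 7 was 11.5 and 12.06 in control libraries and 11.28 and 13.49 in irradiated libraries. The highest of the 7 were Cyp19a1, with 8.79 to 10.23 TPM, and Fshr, with 1.66 to 2.89 TPM. Of 5 immune and blood markers 1 was listed (1.58 to 3.5 TPM), and of 5 stromal and endothelial markers 2 were listed (3.94 to 5.95 TPM). Irradiated library 2 stood apart from the other 3. Its oocyte markers differed too, with Zp2 at 1937.38 TPM against 4115.22 to 4451.98 and Nobox at 1215.47 against 397.66 to 467.83 in the others, in opposite directions that the sum does not show. It had more than 3 counts for 14150 genes, against 13677 to 13733 in the others, and a TMM scaling factor of 1.19, against 0.923 to 0.975. Among the 10 demethylases, 7 had their highest TPM in this library, and the share over all genes was not counted. In counts scaled by the TMM factors this library was the highest for Kdm2a, Kdm4b and Kdm5b. It was the lowest for Kdm1a, Kdm1b, Kdm2b, Kdm4a, Kdm4c and Kdm6a. In bulk RNA of pooled oocytes, fewer cells and less RNA per cell cannot be told apart.

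Kdm1b was by far the most abundant of the 10 messages in every library. Its level was 60.22 and 62.53 TPM in control non-irradiated oocytes and 61.73 and 66.61 TPM in irradiated oocytes. This was 8.13 to 9.68 times the level of Kdm2b, the next in order, and 73.9% to 76.4% of the summed TPM of the 10 genes. By mean TPM, Kdm1b ranked 1606 among the 17374 genes, with 90.8% of them at a lower level. Both flavin-dependent enzymes are H3K4 demethylases, and the other, Kdm1a, had 3.81 and 3.37 TPM in controls and 3.55 and 4.0 TPM after γ-irradiation.
Kdm2b had 6.22 and 7.09 TPM in controls and 6.82 and 8.19 TPM in irradiated oocytes. For Kdm6a, an X-linked gene whose product belongs to the KMT2C and KMT2D complexes, the levels were 4.41, 6.05, 4.65 and 5.84 TPM, in the order control 1, control 2, irradiated 1, irradiated 2. The libraries of these 4 genes did not overlap between neighbours in the order Kdm1b, Kdm2b, Kdm6a, Kdm1a, and Kdm1a in turn stood above Kdm4a in every library. The remaining 6 genes had mean levels of 0.415 to 1.62 TPM in the order Kdm4a, Kdm5a, Kdm5b, Kdm4b, Kdm2a, Kdm4c, and each overlapped with its neighbours.
Summed by substrate, the 4 H3K4 demethylases had 65.6 to 73.16 TPM per library, and 4.97 to 6.55 TPM without Kdm1b. The 2 H3K36 demethylases had 6.55 to 8.85 TPM and the 3 KDM4 genes had 2.24 to 2.97 TPM. The plot of levels by library shows how close the 4 libraries lie for each gene compared with the distance between Kdm1b and the rest.

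**Figure D1:**
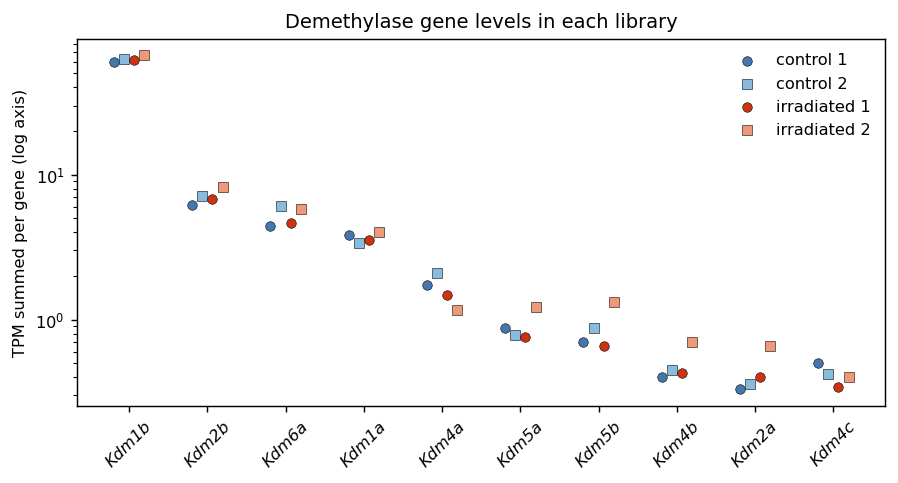
TPM summed per gene (log axis) for the 10 demethylase genes in order of mean level, with 1 point for each of the 2 control libraries (blue) and 2 irradiated libraries (red). Kdm1b lies between 60.22 and 66.61 TPM, whereas the other 9 genes lie at or under 8.19 TPM.

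The comparison of irradiated with control oocytes asks whether the amount of each message differed 24 h following γ-irradiation. It was made on the total of each gene, the sum of estimated counts over its transcripts, scaled by the TMM factors to normalized counts. A gene was called where its Benjamini-Hochberg adjusted p was below 0.05 and its log2 fold change exceeded 2 in either direction. None of the 10 demethylases was called by edgeR's quasi-likelihood test (0 of 10, 1 at an unadjusted p under 0.05), DESeq2 or limma-voom. Over all 12569 genes tested 1 was called, or 0.00796%. An unadjusted p under 0.05 was found for 744 genes, or 5.92%, of which 4.63% of all genes tested were higher and 1.29% lower in irradiated oocytes, and the member below that limit, Kdm4a, was lower. The fitted log2 fold change was below 0 for 7 members and above 0 for 3, with a median of -0.11. Over all genes tested the median was 0.01 and 51.4% were above 0. This split depended on the scaling. When libraries were scaled by size alone or compared by TPM, the median of all genes shifted to between 0.08 and 0.21, and Kdm2b turned above 0 in all of these, Kdm1a, Kdm1b and Kdm6a in TPM alone, and Kdm5a by library size and in unfiltered TPM.
The 95% interval of the log2 fold change lay within 2 in both directions for all 10 genes and within 1 for 8 of them. The median spread between the replicate libraries of a gene was 0.18 (SD, log2 scale).

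Among the H3K4 demethylases, Kdm1b had normalized counts of 6722 and 6666.5 in controls and 6790 and 5026 in irradiated oocytes. Irradiated library 1 was the highest of the 4 and irradiated library 2 the lowest, so that the groups overlapped. The log2 fold change was -0.18 (SE 0.19, 95% interval -0.63 to 0.27), which bounds the ratio of irradiated to control between 0.646 and 1.21 (adjusted p = 0.773, edgeR's quasi-likelihood test). Leaving out irradiated library 1 gave -0.43, and leaving out irradiated library 2 gave 0.02.
Kdm1a had normalized counts of 307 and 255 in controls and 271 and 234 after γ-irradiation, again with overlap, and a log2 fold change of -0.16 (SE 0.18, 95% interval -0.57 to 0.26, adjusted p = 0.790, edgeR). Kdm5a, whose product binds and demethylates trimethylated H3K4, had 190 and 160 normalized counts in controls and 174 and 166 in irradiated oocytes. Both irradiated libraries lay between the controls, at a log2 fold change of -0.04 (95% interval -0.47 to 0.39). Kdm5b, known for trimming H3K4 trimethylation after fertilization, had 120 and 141 in controls and 107 and 164 after γ-irradiation, where the irradiated libraries were the lowest and the highest of the 4. Its log2 fold change was 0.06 (95% interval -0.53 to 0.66).

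Of the H3K36 demethylases, Kdm2b had 609 and 656 normalized counts in controls and 647 and 567 in irradiated oocytes. The groups overlapped, and the log2 fold change of -0.06 had the narrowest interval of the 10 genes (SE 0.14, 95% interval -0.39 to 0.27, adjusted p = 0.890, edgeR). Kdm2a, the close relative of Kdm2b, was low, with estimated counts of 58.0 to 94.0 per library. Its normalized counts of 66.6 and 62.9 in controls both lay under the 75.5 and 80.9 of irradiated oocytes. The log2 fold change was 0.27 (SE 0.22, 95% interval -0.24 to 0.79, adjusted p = 0.734, edgeR), and it stayed above 0, between 0.18 and 0.44, in the 8 alternative fits that tested Kdm2a and without each library. Filtered TPM fits did not test it.

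The KDM4 genes, whose products act on H3K9 and H3K36, included the members with the largest differences under TMM scaling, Kdm4a and Kdm4c, and neither passed the test. By library size alone and in unfiltered TPM, Kdm2a differed more than Kdm4c (0.44 against -0.40, and 0.18 against -0.09). Kdm4a had 159 and 182 normalized counts in controls and 132 and 79.2 in irradiated oocytes, 170.5 ± 16.4 and 105.5 ± 37.2 (mean ± SD, n = 2). Both irradiated libraries lay under both controls, irradiated library 2 the furthest. The log2 fold change of -0.70 (SE 0.27, 95% interval -1.34 to -0.06) had an unadjusted p of 0.0363 (adjusted p = 0.708, edgeR's quasi-likelihood test). Its value was -0.37 if irradiated library 2 was left out and -1.11 if irradiated library 1 was. Without control libraries 1 and 2 it was -0.80 and -0.60. In the alternatives that kept every library it lay between -0.75 and -0.33. Kdm4a was the 1 member with an unadjusted p under 0.05, beside 5.92% of all genes tested. This count varied among the fits without 1 library, as did the number over all genes.
For Kdm4c the normalized counts were 57.4 and 45.5 in controls and 37.2 and 32.7 in irradiated oocytes, from estimated counts of 35.0 to 56.0. Here too both irradiated libraries were the lowest, with a log2 fold change of -0.56 (SE 0.28, 95% interval -1.21 to 0.09, adjusted p = 0.708, edgeR). Kdm4b had 59.4 and 62.9 in controls and 60.6 and 74.9 after γ-irradiation, with overlap, and a log2 fold change of 0.15 (95% interval -0.41 to 0.71). Without irradiated library 2 it was -0.01. The groups thus did not overlap for 3 of the 10 genes, Kdm2a, Kdm4a and Kdm4c, the first higher and the others lower in irradiated oocytes. Over all genes tested the groups did not overlap for 41.9%, 22.1% with higher and 19.9% with lower irradiated libraries. The same 3 genes did not overlap in TPM, against 33.7% of 17356 genes.

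For the H3K27 demethylase Kdm6a, control library 2 was the highest with 930 normalized counts, beside 722 in control library 1 and 722 and 683 in irradiated oocytes. The groups overlapped, with a log2 fold change of -0.23 (SE 0.16, 95% interval -0.61 to 0.15, adjusted p = 0.714, edgeR). The value was -0.04 without control library 2 and -0.41 without control library 1. Without irradiated libraries 1 and 2 it was -0.28 and -0.19. Its Y-linked relative Uty, picked after its values were seen, was listed with 29.33 to 67.34 estimated counts per library in these female oocytes. Reads of similar sequence that belong to Kdm6a or another relative can be counted there, so the values of both genes carry this uncertainty. The plot of log2 fold changes shows the 10 intervals, all inside the limits of a call.

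**Figure D2:**
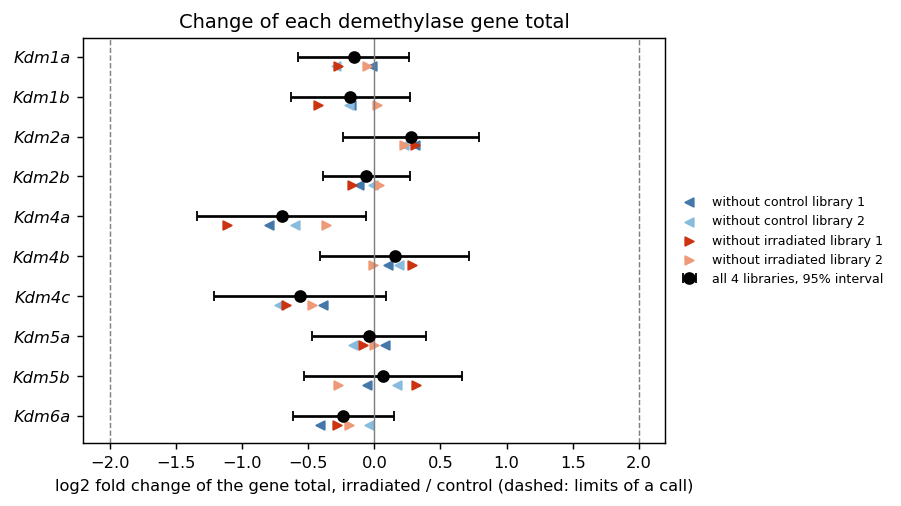
Log2 fold change of the gene total (irradiated over control) for the 10 demethylases. Black points give the fit to all 4 libraries with its 95% interval, triangles the fit without 1 library, and dashed lines the fold limits of a call at -2 and 2. The Kdm4a interval, from -1.34 to -0.06, is the only one that does not hold 0.

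Within genes, the reads were divided among 45 transcripts, 12 known (NM) and 33 predicted by computation (XM). Of these, 15 had more than 3 counts in all 4 libraries, 16 in a single library and 3 in none. The transcript with the highest mean TPM held more than 50% of its gene's TPM in each library for 4 genes (Kdm4a, Kdm4c, Kdm5b and Kdm6a), and by counts for 6. Transcripts of 1 gene share most of their sequence, so that the split rests on few distinguishing reads, and the values of single transcripts varied far more between replicates than gene totals (common dispersion 0.473 against 0.0251). Of the 24 transcripts tested, 0 were called by edgeR's quasi-likelihood test (background 0%, 0 of 26645) and 1 had an unadjusted p under 0.05 (background 4.9%). Likewise 0 were called by edgeR's exact test (background 0.927%, with 1 member transcript at an unadjusted p under 0.05) and 0 of the 30 to which DESeq2 gave an adjusted p (background 0.862%, with 5 at an unadjusted p under 0.05 beside 1488 of 28757 transcripts). Of these 5, all but XM_011248211.3 had counts in a single library. Isoform usage, tested with diffSpliceDGE of edgeR in the 8 members with at least 2 tested transcripts, gave Simes p-values of 0.362 (Kdm2b) to 0.961 (Kdm5a), all with an adjusted p of 1. None (0 of 8) was called, and 0 had an unadjusted p under 0.05. Over 6323 genes 0.253% were called, and 6.12% had an unadjusted p under 0.05. Transcripts other than the leading one of each gene are named here after their values were seen, except for XM_011248211.3.

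For Kdm1a, the transcript with exon 3 shown above, NM_001347221.1, had 211.92 and 132.14 estimated counts in controls and 115.27 and 271.98 in irradiated oocytes. NM_133872.2, without that exon, had 87.84, 102.75, 140.09 and 0.02. The transcript with the exon held 70.3% and 55.8% of the TPM of Kdm1a in controls, 44.5% in irradiated library 1 and 100% in irradiated library 2. The irradiated libraries were thus the lowest and the highest of the 4, while the gene total varied between 234.89 and 299.76 estimated counts. Kdm6a was divided more evenly across libraries. NM_001310444.1, which lacks the 17 bases of exon 28, had 573.83 and 648.82 counts in controls and 581.02 and 687.63 after γ-irradiation, and 77.0% to 87.5% of the TPM of the gene. Its log2 fold change was -0.08 (adjusted p = 1, edgeR). NM_009483.2, with those bases, had 86.36 and 139.95 in controls and 60.15 and 71.41 in irradiated oocytes.

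Kdm1b had 6 listed transcripts. The leading one, the predicted XM_006516914.3, had 3480.01 and 3426.25 counts in controls and 3720.99 and 2458.62 in irradiated oocytes, with overlap (log2 fold change -0.25, adjusted p = 1, edgeR). The next by TPM, XM_006516919.4, had 1026.95, 674.92, 490.22 and 1928.86 counts. Its share of the TPM of Kdm1b was 21.1% and 15% in controls, 10.7% in irradiated library 1 and 41.6% in irradiated library 2. In irradiated library 2 the shares of XM_006516914.3 (37.6%) and XM_006516915.3 (13.4%) were the lowest of the 4 libraries. The known transcript NM_172262.3, with 21 exons and 826 codons on chromosome 13 from 47043499 to 47085279, held 4.21% to 7.43%. Most reads of Kdm1b were thus assigned to predicted transcripts in all 4 libraries.

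In Kdm2b, single transcripts varied widely between replicates, while the gene total ran from 594.0 to 659.0 estimated counts. NM_013910.2 had 101.7 and 256.25 counts in controls and 488.17 and 230.98 in irradiated oocytes (log2 fold change 0.92, adjusted p = 1, edgeR). Leaving out 1 library moved this value between 0.08 (without irradiated library 1) and 1.79 (without control library 2). XM_030254560.1 had 386.87 and 237.87 in controls, and 10.59 and 250.69 after γ-irradiation. Where the first was highest the second was lowest, and control library 2 and irradiated library 2 had similar counts of both. The ratio of count to TPM follows transcript length, and was used to estimate the length of predicted transcripts whose models are not used here. It gave 3530 bases for NM_013910.2, against 3532 in its model, but 6300 for Kdm5b NM_152895.2, against 8714 in the model matched to it. Of transcripts with a model at 10 TPM or more, 1937 of 3032 in control library 1 and 2345 of 3595 in irradiated library 2 lay within 5% of the fitted line and set it. XM_030254560.1 came to 3450 bases and XM_011248217.3, which had counts in irradiated library 2 alone (113.02), to 3570 bases. The other transcripts with an estimate, XM_030254558.1, XM_011248209.3 and XM_011248215.2, came to 4910 to 5080 bases, near the 5180 bases of the full-length model. The 3 shorter transcripts together held 87.5% and 86.6% of the TPM of Kdm2b in controls and 87.0% and 93.2% in irradiated oocytes. By counts their share was 82.2% and 81.7% in controls and 82.0% and 90.2% after γ-irradiation. Control libraries and irradiated library 1 thus lay within 1 percentage point of each other in either unit, and irradiated library 2 was higher. This grouping by length was made after the values were seen, and a length does not show which start a transcript has.
The predicted Kdm2b transcript XM_011248211.3 was the only one of the 45 with more than 3 counts in both libraries of one group and at most 3 in both of the other. The share of such transcripts over all transcripts was not counted, so this is a description alone. XM_011248211.3 had 16.95 and 18.22 counts in controls and 0 in both irradiated libraries. Against a floor of 3 unscaled counts per library, its mean normalized count of 18.3 ± 1.49 (mean ± SD, n = 2) in controls was 6.12-fold higher. It passed the filter on low counts through the controls alone, so no test is given for it, and it is the 1 tested member transcript counted above at an unadjusted p under 0.05. It made up 1.93% and 2.12% of the TPM of Kdm2b in controls. The plot of stacked transcripts shows these splits beside the steadier height of the gene totals.

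**Figure D3:**
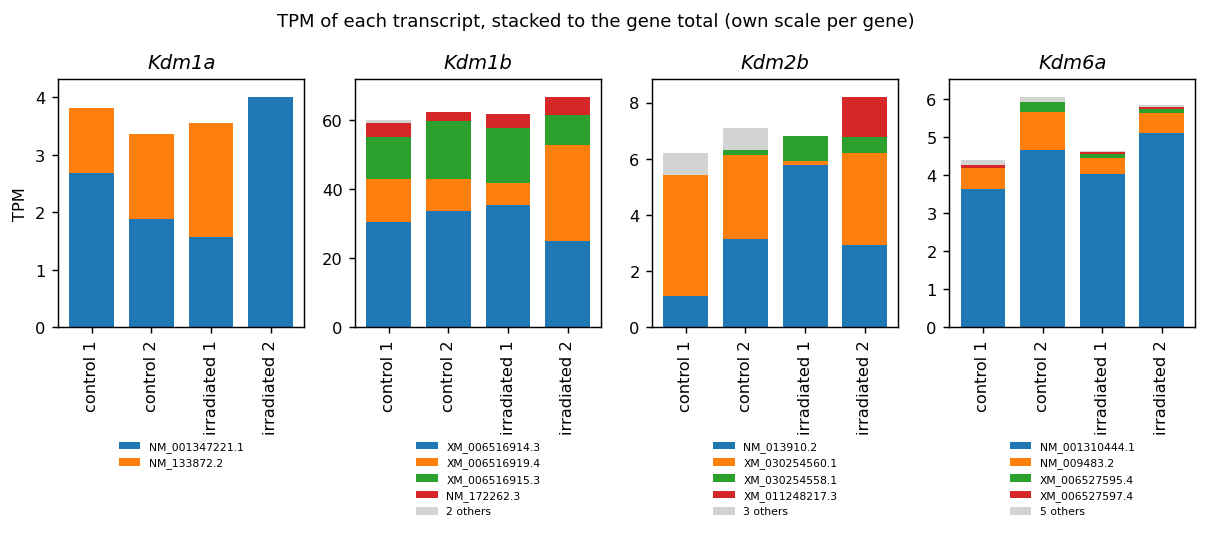
TPM of the transcripts of Kdm1a, Kdm1b, Kdm2b and Kdm6a in each of the 4 libraries, stacked so that the bar height is the gene total. Each panel has its own axis from 0. Colours mark up to 4 transcripts by mean TPM and grey the sum of the others. In irradiated library 2, Kdm1a is assigned to NM_001347221.1 alone (4.0 TPM).

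Among the low genes, the leading transcript NM_172382.2 of Kdm4a had 136.06 and 149.68 counts in controls and 102.52 and 74.11 in irradiated oocytes, and 84.6% to 91.9% of the gene's TPM. Its log2 fold change was -0.79 (adjusted p = 1, edgeR), and between -1.22 and -0.46 without 1 irradiated library. Kdm4c had 1 listed transcript, NM_144787.2. Kdm5b was carried by NM_152895.2, with 98.5% to 100% of its TPM, whereas Kdm5a was divided between NM_145997.2, with 59.8% and 60.3% of its TPM in controls and 69.7% and 45.9% in irradiated oocytes, and XM_011241281.3 with the rest. NM_001001984.2 held 100% and 72.2% of Kdm2a in controls and 100% and 43.9% in irradiated oocytes. The 56.92 to 86.66 counts per library of Kdm4b were spread over 11 predicted transcripts, and the leading one, XM_017317356.1, had 20.55 and 36.86 counts in control library 1 and irradiated library 2 and 0 in the other two.

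Beyond the 10 genes, 13 other demethylase genes were listed. Riox2, a JmjC oxygenase of the nucleolus, was the highest at 67.2 to 75.16 TPM, on the scale of Kdm1b. Kdm6b, which like Kdm6a encodes an H3K27 demethylase, had 19.73 and 20.79 TPM in controls and 29.21 and 49.33 TPM in irradiated oocytes, above the levels of Kdm6a in every library. Its normalized counts were 3612 and 3581 in controls and 5098 and 6529 after γ-irradiation. Both irradiated libraries were above both controls, and irradiated library 2 was the highest. The log2 fold change was 0.69 (SE 0.17, 95% interval 0.29 to 1.1), with an unadjusted p of 0.00518, the smallest of the list (adjusted p = 0.708, edgeR's quasi-likelihood test), so that Kdm6b was not called. Without irradiated library 2 the value was 0.50, and without irradiated library 1 it was 0.85. These were fits with 1 irradiated library, which was assumed to vary as the controls did, and edgeR's adjusted p was 3.32e-05 and 1.54e-18 in them, with the fold change still under the limit. Without a control library it was 0.69 and 0.68, with edgeR's adjusted p at 1 and 0.9997. In the alternatives with all 4 libraries it lay between 0.67 and 0.90, with adjusted p-values of 0.285 to 0.784. Kdm5c, an X-linked H3K4 demethylase, had 5.39 to 7.48 TPM and Kdm7a, which acts on H3K9 and H3K27, had 4.87 to 6.45 TPM. Of the 12 genes tested in this list 0 were called, 5 were above and 7 below a log2 fold change of 0, and 2 had an unadjusted p under 0.05, Kdm6b and Kdm4d. Kdm4d, which the KDM4 members resemble, had only 9.0 to 21.0 counts per library. Its normalized counts were 18.4 and 22.8 in controls and 12.8 and 7.75 in irradiated oocytes (adjusted p = 0.708, edgeR).

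**Figure D4:**
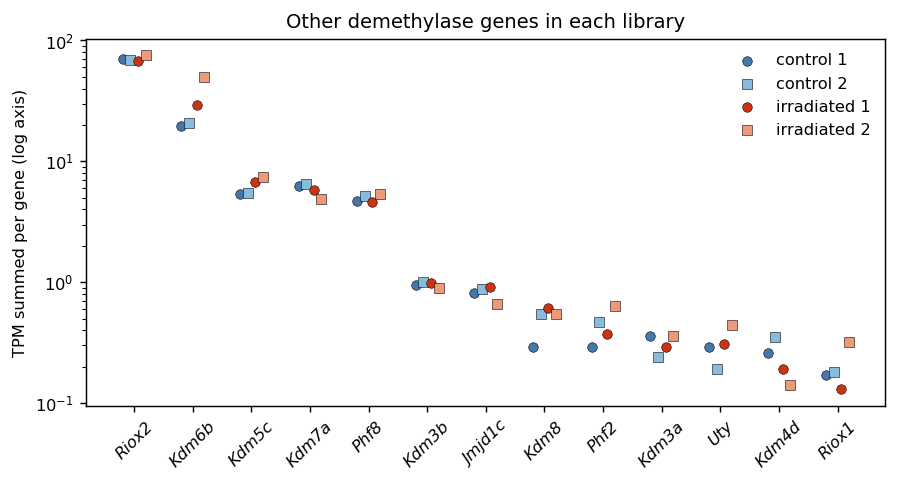
TPM summed per gene (log axis) for the 13 other demethylase genes listed, in order of mean level, with 1 point for each control library (blue) and each irradiated library (red). Riox2 lies between 67.2 and 75.16 TPM in the 4 libraries. For Kdm6b the irradiated libraries, at 29.21 and 49.33 TPM, lie above the controls.

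The partners of the demethylases were taken from lists of complex subunits, 74 companion genes in all with the other demethylases and the enzymes of the closing section, each counted once. Of the 70 tested, 0 were called by edgeR's quasi-likelihood test or DESeq2 and 4 had an unadjusted p under 0.05, against the 5.92% of all genes. Their median log2 fold change was -0.03 with TMM scaling, to which all counts of companions above and below 0 refer, and 0.12 to 0.14 by library size alone and in filtered TPM. Without irradiated library 1, 32 of them had an unadjusted p under 0.05, beside 5395 of 13011 genes in the same fit, and without irradiated library 2 there were 9, beside 1277 of 12761 genes. KDM1A works in the CoREST complex with histone deacetylases. In that list the deacetylase Hdac2 had 27.94 to 34.19 TPM and Hdac1 had 5.73 to 8.74 TPM. Of 10 tested genes 5 were above and 5 below a log2 fold change of 0, and Hmg20b had the smallest p. Hmg20b had 88.1 and 108 normalized counts in controls and 113 and 226 in irradiated oocytes, with irradiated library 2 far above the rest (log2 fold change 0.79, adjusted p = 0.708, edgeR). The value was 0.20 without that library and 1.19 without irradiated library 1. Glyr1, whose product binds KDM1B and nucleosomes, had 8.45 to 11.59 TPM and overlapping groups (log2 fold change 0.02). The sign of this value turned in DESeq2.
KDM2B anchors PRC1.1, which ubiquitinates histone H2A. Of its other subunits, Skp1 (10883.42 to 12597.98 TPM) and Pcgf1 (2983.84 to 3956.41 TPM) were by far the most abundant, ahead of the catalytic subunit Rnf2 (28.04 to 38.97 TPM) and of Usp7 (23.2 to 30.42 TPM). Of 8 tested genes 2 were above and 6 below 0, with a median of -0.27. The smallest p belonged to Bcor, a scaffold subunit with 60.5 and 42.3 normalized counts in controls and 34.0 and 31.0 in irradiated oocytes (log2 fold change -0.66, adjusted p = 0.708, edgeR). In the KMT2C and KMT2D complex, to which KDM6A belongs, the core subunit Dpy30 had 635.97 to 713.21 TPM, Pagr1a 22.2 to 38.27 TPM, Wdr5 17.28 to 26.6 TPM and Ash2l 16.58 to 24.2 TPM. Of its 9 genes 6 were above and 3 below 0. The H3K4 methyltransferase Kmt2d had 1134 and 1005 normalized counts in controls and 1484 and 4171 in irradiated oocytes. Both irradiated libraries were higher, irradiated library 2 by far the most. The log2 fold change was 1.40 (SE 0.42), with an unadjusted p of 0.0132 (adjusted p = 0.708, edgeR's quasi-likelihood test), and leaving out irradiated library 2 or 1 gave 0.47 or 1.95. In the fits without 1 library, edgeR's adjusted p for Kmt2d was 0.0237 and 0.0793 without control libraries 1 and 2, 3.07e-93 without irradiated library 1 and 0.00163 without irradiated library 2, always with a fold change under the limit.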

How the data were processed

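Estimated counts and TPM values were used from the authors' table of RefSeq transcripts, with 4 libraries grouped by their labels. The authors sequenced oligo(dT)-isolated mRNA as paired-end reads of 100 bp and aligned them to GRCm38. HISAT2, Bowtie2 and RSEM are listed in the submitters' processing notes, without versions or roles. The deposited estimated counts are not scaled for library size, whereas the deposited TPM values are corrected for transcript length and scaled to a common total. A further 4 FPKM columns and 6 columns of averages were not used. Symbols came from RefSeq (GRCm38.p6) for 17323 of 17374 gene IDs.

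Counts were summed per gene, rounded and tested over all genes or transcripts with edgeR 4.0.16 in R 4.3.3 (glmQLFit and glmQLFTest after filterByExpr with a minimum count of 10, TMM scaling, no replicate block), and p-values were adjusted by Benjamini-Hochberg. The limits of a call follow the paper's methods. Intervals of 95% come from standard errors of the fit. Alternatives were DESeq2 1.42.0, limma 3.58.1 on voom values or on log2(TPM + 1) and log2(TPM + 0.1), edgeR's exact test, other scalings and filters, a replicate block, and each library left out. The edgeR, DESeq2 and voom fits and the isoform usage test of edgeR (diffSpliceDGE, Simes) were tested on simulated data. Levels and transcript shares are descriptions without a test. The floor for folds against an empty group was 3 counts.

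Text names all 10 members, the leading transcript of each, transcripts called or present in 1 group only, and up to 4 companion genes a list by mean TPM plus the one with the smallest p. One companion gene that this rule names is not reported here. Members and lists were chosen with earlier results of these data known. Lengths were estimated from count over TPM, calibrated on transcripts with a GENCODE vM21 model. Figures were drawn with matplotlib 3.10.9.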

Additional observations from a re-analysis of the deposited data

How the results depend on the processing

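No demethylase, member transcript or companion gene was called under any alternative run, and isoform usage gave 0 calls among the demethylases in each. With 2 libraries a condition, p-values rest on the spread between 2 experimental replicates, moderated in the fits over all genes or transcripts. Estimated counts of 35.0 to 94.0 per library limit the precision for Kdm2a, Kdm4b and Kdm4c. For a fit without 1 library, the lone library of its condition was assumed to vary as the other condition did. The fit without irradiated library 1 put some members under the adjusted p limit, with a fold change under the limit of a call.

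Log2 fold changes that turned sign were as follows. Scaling by library size alone gave 0.09 for Kdm2b, 0.12 for Kdm5a and 0.061 for Kdm6a NM_001310444.1. Limma on log2(TPM + 1), with or without a filter, gave 0.0571 for Kdm1a, 0.0625 for Kdm1b, 0.15 for Kdm2b, 0.0095 for Kdm6a, 0.112 for NM_001310444.1 and 0.0144 for Idh3g, and, without a filter, 0.116 for Kdm5a. With a pseudocount of 0.1 they were 0.0707 for Kdm1a, 0.0634 for Kdm1b, 0.168 for Kdm2b, 0.0123 for Kdm6a, 0.135 for NM_001310444.1 and 0.0146 for Idh3g. DESeq2 gave -0.0014 for Glyr1. Leaving out each library in turn gave ranges of -0.425 to 0.0211 for Kdm1b, -0.167 to 0.0334 for Kdm2b, -0.0113 to 0.281 for Kdm4b, -0.16 to 0.0807 for Kdm5a, -0.277 to 0.317 for Kdm5b, -0.76 to 0.125 for Kdm1b XM_006516914.3, -0.206 to 0.0616 for Kdm6a NM_001310444.1 and -0.0723 to 0.0897 for Glyr1. The cause of these turns was not tested.

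The number of members at an unadjusted p under 0.05, 1 in the reported fit, was 0 by library size alone and in the 3 fits of limma to TPM. It also varied among the fits without 1 library, as did the number over all genes. For member transcripts it was 1 in the reported fit, 5 with DESeq2, 0 with limma-voom and both filtered TPM fits, and 2 in unfiltered TPM. It varied among the fits without 1 library, as did the number over all transcripts. For companion genes, 4 in the reported fit, it was 8 without a low-count filter, 1 and 2 in filtered TPM with pseudocounts of 1 and 0.1, and 2 to 32 without 1 library, the highest without irradiated library 1. For isoform usage, 0 in the reported fit, it was 1 with limma's diffSplice and 0 to 1 without 1 library. The members' median log2 fold change, -0.11 in the reported fit, turned to 0.0442 by library size alone, to 0.0571 and 0.0634 in filtered TPM and to 0.089 in unfiltered TPM, and the companions' to 0.124 by library size and to 0.138 and 0.142 in filtered TPM with pseudocounts of 1 and 0.1 and 0.114 in unfiltered TPM. Of the other values, 277 for single genes and transcripts kept their direction and were not called, since a call needs both limits.

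Libraries of the 2 conditions share replicate numbers, but the labels do not say that a number marks a shared experiment, and the correlation of their deviations from the group means was 0.0976. With a replicate block, 0 members and 0 companions were called, 1 member, 0 member transcripts and 10 companion genes had an unadjusted p under 0.05, and the members' median was -0.11. Over all genes the block moved the calls from 1 to 7 and the genes at an unadjusted p under 0.05 from 744 to 1299.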

Other observations

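The enzymes that write the marks removed by the 10 demethylases were also measured. Of the 5 H3K4 methyltransferases tested, 4 were above and 1 below a log2 fold change of 0. By mean TPM they were Kmt2d (1.92 to 10.49 TPM), Kmt2c (2.95 to 3.75 TPM), Kmt2b (1.16 to 2.18 TPM) and Setd1a (0.94 to 1.68 TPM). Kmt2a had at most 3 counts in any library. Among the 7 H3K9 methyltransferases, Suv39h1, which trimethylates H3K9 in pericentric heterochromatin, was the highest at 76.42 to 107.38 TPM. It was followed by Suv39h2 (13.32 to 14.94 TPM), Setdb1 (10.37 to 11.56 TPM) and Setdb2. Of these 7 genes 2 were above and 5 below 0. Setdb2 had the smallest p, with 733 and 905 normalized counts in controls and 627 and 660 in irradiated oocytes (log2 fold change -0.35, adjusted p = 0.708, edgeR). For the 4 PRC2 genes of the H3K27 list 0 were above and 4 below 0 with TMM scaling, with a median of -0.19. Their levels were 80.53 to 127.43 TPM for Eed, 71.36 to 83.77 TPM for the methyltransferase Ezh2, 8.47 to 10.33 TPM for Suz12 and 5.25 to 7.43 TPM for Ezh1. Suz12 had the smallest p of the list, with a log2 fold change of -0.25 (adjusted p = 0.708, edgeR). These lists held 0 called genes in edgeR's quasi-likelihood test or DESeq2, and 1 with an unadjusted p under 0.05, Kmt2d.

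Of the 5 H3K36 methyltransferases, 2 were above and 3 below 0. Nsd1 had 5.55 to 9.12 TPM, Setd2 4.81 to 6.18 TPM and Nsd2 1.92 to 2.29 TPM. Nsd3 had 344 and 360 normalized counts in controls and 401 and 697 in irradiated oocytes. Its log2 fold change was 0.64, with an unadjusted p of 0.0393 (adjusted p = 0.708, edgeR's quasi-likelihood test), and without irradiated library 2 it was 0.19. The demethylases use 2-oxoglutarate or flavin as cofactors. Of 11 genes for the metabolism of 2-oxoglutarate, succinate and fumarate or for flavin synthesis, 4 were above and 7 below 0. Among them, 0 had an unadjusted p under 0.05. Sdhb (165.79 to 204.67 TPM), Idh3a (64.96 to 89.26 TPM), Fh1 (52.7 to 68.63 TPM) and Idh3g (39.74 to 46.72 TPM) were the highest. Idh3g had the smallest p of the list, with a log2 fold change of -0.20 (adjusted p = 0.714, edgeR), and turned above 0 in TPM.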
